A study of Mus musculus with 8 samples.

Results

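The matrix metalloproteinases, the ADAMTS proteases with their ADAMTS-like relatives, and the tissue inhibitors of metalloproteinases (TIMPs) were followed through RNA-seq counts of mouse breast cancer cells. Members were all rows of the count table whose symbol is Mmp, Adamts, Adamtsl or Timp followed by a number, with or without a final letter. This rule uses no measured value and took 51 of 23478 gene rows: 23 MMPs, 19 ADAMTS proteases, 5 ADAMTS-like proteins and 4 TIMPs. After the filter on low counts 46 were tested, and Mmp7, Mmp8, Mmp20, Mmp21 and Mmp27 were not.

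The 8 libraries formed 4 groups of 2 biological replicates. Disseminated cancer cells (DCC), taken from bone marrow of mice whose mammary cancer had spread spontaneously and then cultured, were either treated with interferon-gamma (DCC IFN-gamma) or left as controls (DCC control). TUBO is a cell line established from a mammary tumour of a neuT mouse, which carries an activated rat Erbb2. The early lesion group held cancer cells isolated directly from an early mammary tumour, and its label also names neuT. All groups have the genotype label WT, and neither the interferon dose and time nor strain, age, litter or culture of origin were given in the sources used here. The protocol shared by all samples also names TNF-alpha and anti-HER2 antibodies, alone or combined, while the labels of the treated libraries name interferon-gamma alone, so that agent is taken from those labels. The p-values measure the spread between these libraries, which may be partly technical.

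MMPs are zinc proteases made as inactive pro-enzymes whose pro-domain must be removed before they cut collagens, laminins, elastin and other matrix proteins. ADAMTS proteases carry thrombospondin repeats that hold them in the matrix, where they cut proteoglycans such as aggrecan and versican or trim procollagens, and ADAMTS-like proteins share those repeats without a protease domain. TIMPs bind the active site of MMPs, and TIMP-3 also inhibits several ADAMTS and ADAM proteases. In mammary tumours much MMP RNA is made by stromal fibroblasts and macrophages rather than by the epithelium, and in bone Mmp13 is a product of osteoblasts and hypertrophic chondrocytes.

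The libraries held 15432210 to 30168475 reads on genes, and 3 counts stood for 0.0953 to 0.183 CPM, the unit of counts scaled to library size. Keratin and junction genes checked the epithelial label: the 10 epithelial markers summed to 0.367 to 0.459 CPM in DCC IFN-gamma and 3.60 to 5.78 CPM in DCC control, against 5980 to 6420 CPM in TUBO and 3070 to 3260 CPM in early lesion cells, and Epcam was at 0 in both DCC IFN-gamma libraries. The 9 fibroblast markers summed to 708 to 1150 CPM in DCC IFN-gamma, 7440 to 8570 CPM in DCC control, 12.7 to 18.8 CPM in TUBO and 20.1 to 20.5 CPM in early lesion cells. The genes that define mammary epithelium were thus at or near 0 in the DCC libraries, which are called DCC here by their label. Olfactory and vomeronasal receptor genes, 1450 in number, had a count for 47.7% in DCC control replicate 1 and 63.7% in early lesion replicate 2, against 0.966% to 11.9% in the other libraries. These 2 libraries also had the most reads outside genes, and each count of called genes was repeated without both. The DCC IFN-gamma replicates stood furthest apart: among 18 members with a mean of at least 10 CPM there, 13 were over 1.5 times higher in replicate 2 and 1 in replicate 1, against 0 and 1 of 20 in DCC control.

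The families differed in weight between the groups. Summed over members as CPM per kilobase of exon (RPKM), a scale on which genes can be compared, the set reached 948.8 and 1791 RPKM in DCC IFN-gamma, 1452 and 1754 RPKM in DCC control, 123.5 and 124.7 RPKM in TUBO, and 140.0 and 135.1 RPKM in early lesion cells. TIMPs made up 82.4% and 76.4% of this sum in DCC IFN-gamma and 63.3% and 62.3% in DCC control, but 23.7% and 20.1% in TUBO and 28.7% and 24.1% in early lesion cells. ADAMTS proteases held 2.88% and 3.32% in DCC IFN-gamma and 2.55% and 2.28% in DCC control. Their share was 20.8% and 22.2% in TUBO and 22.3% and 24.2% in early lesion cells. Their summed level differed less, at 27.3 and 59.4 RPKM in DCC IFN-gamma and 37.1 and 40.0 RPKM in DCC control. It was 25.7 and 27.7 RPKM in TUBO and 31.25 and 32.7 RPKM in early lesion cells. Per length, Timp1 led both DCC groups with a mean of 630 RPKM in DCC IFN-gamma and 604 RPKM in DCC control, whereas the membrane-bound Mmp15 led TUBO with 46.1 RPKM and early lesion cells with 34.6 RPKM. This order depends on the union exon length used. By mean CPM, Timp2 led DCC IFN-gamma (1185, against 559 for Timp1) and Timp3 led DCC control (1684, against 537 for Timp1). Timp3 also led early lesion cells by mean CPM (254.5, against 186.7 for Mmp15), while Mmp15 led TUBO on both scales.

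**Figure D1:**
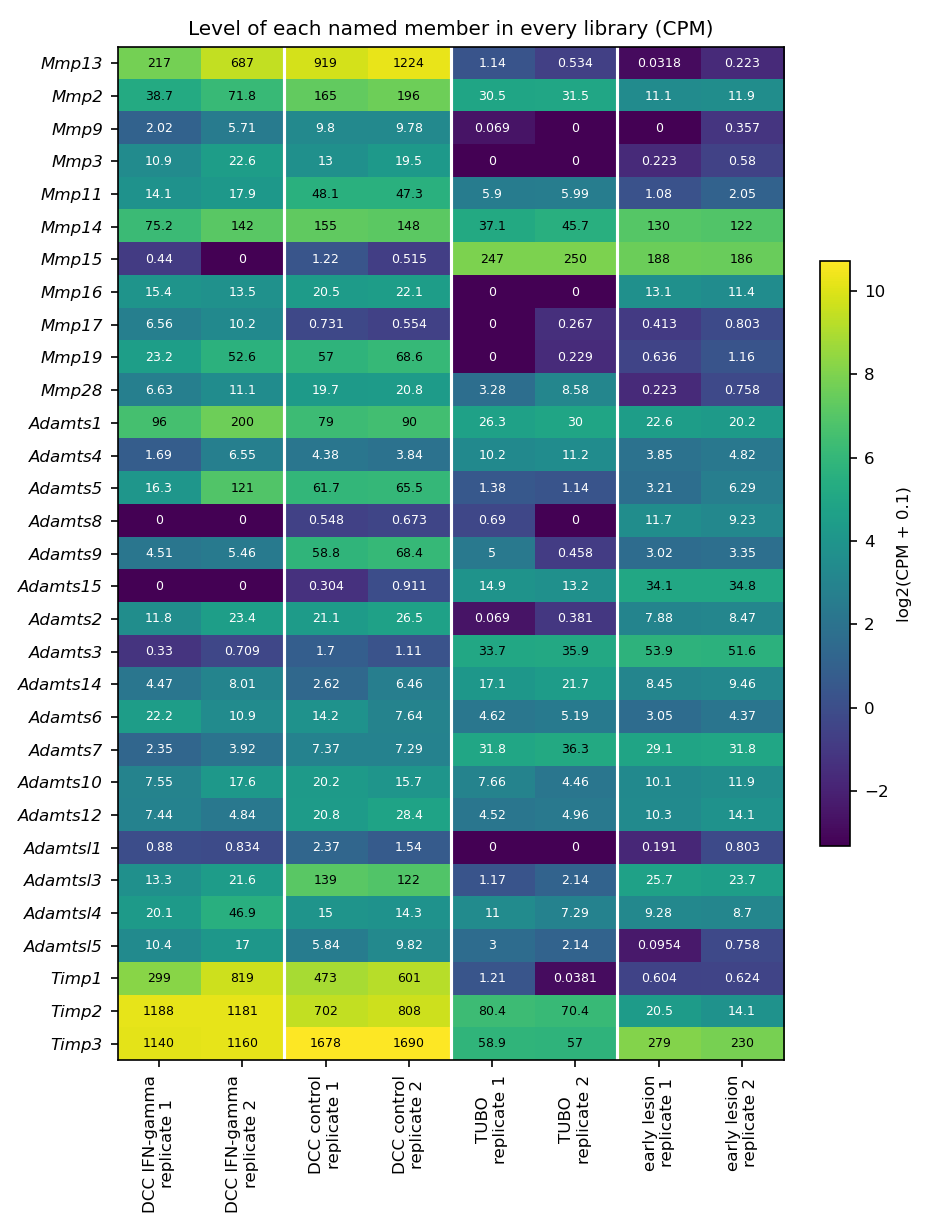
Level in CPM of each named member (rows) in each of the 8 libraries (columns), coloured by log2(CPM + 0.1). Timp1, Timp2, Timp3 and Mmp13 are brighter in the 4 DCC libraries than elsewhere, while Mmp15, Adamts3 and Adamts15 are brighter in TUBO and early lesion cells. Timp3 is also bright in early lesion cells.

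**Figure D2:**
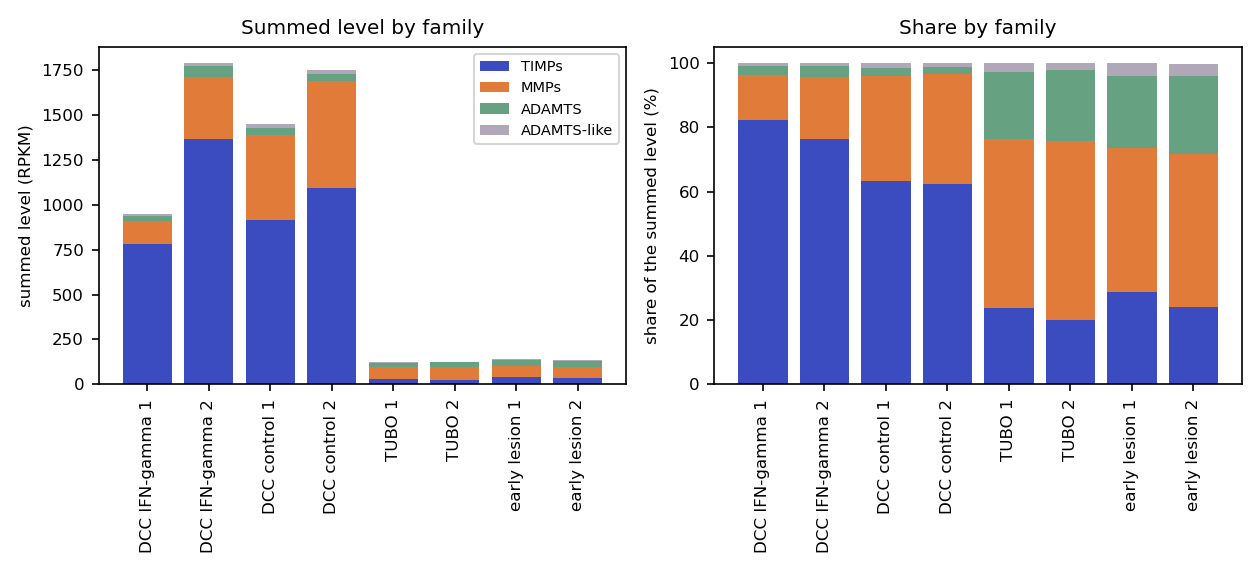
Summed level of each family in RPKM (left) and its share of the sum in percent (right) for the 8 libraries. The sum reached 948.8 to 1791 RPKM in DCC libraries and 123.5 to 140.0 RPKM in the other libraries.

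Interferon-gamma was accompanied by more members lower than higher. At an adjusted p under 0.05 in edgeR's quasi-likelihood test, 3 of 46 tested members were higher and 9 lower in DCC IFN-gamma than in DCC control, which is 26.1% called against 21.4% of all genes tested. By direction, 6.52% of members were called higher against 12.6% of all genes, and 19.6% lower against 8.83%. The median log2 fold change was −1.21 over members and −0.20 over all genes. Members near the floor enter the members' median. Of 20 low members given together below, not all tested, 13 and 15 had no read in the DCC IFN-gamma libraries. In DCC control 1 and 5 of them had none. The 3 higher calls became 0 without either DCC control library, 1 without TUBO replicate 2 or without replicate 2 of DCC IFN-gamma, and 0 under upper quartile scaling. A fit of the 4 DCC libraries alone ended the calls of Timp2 (edgeR adjusted p 0.0529), Timp3 (0.082), Adamts3 (0.261), Adamts7 (0.0581) and Adamtsl4 (0.0562). The same fit called 1 member higher and 12 of 40 tested lower, against 2042 higher and 2242 lower of all 14654 genes it tested. Among the lower it gained Mmp28 (0.0266) and Adamts8 (0.0287). Its other gains were members with at most 3.57 CPM in any library. Macrophage markers moved with the treatment, 8 of 9 being called higher at summed levels of 871 to 1160 CPM in DCC IFN-gamma and 101 to 102 CPM in DCC control, and fibroblast markers moved the other way, 5 of 8 tested being lower and 1 higher. Osteoblast markers summed to 138 to 257 CPM in DCC IFN-gamma and 2370 to 2710 CPM in DCC control, with 3 of 7 called lower. Pan-leukocyte markers summed to 341 to 372 CPM in DCC IFN-gamma and 30.1 to 31.3 CPM in DCC control, with 3 of 5 called higher. The 7 neutrophil markers summed to 49.7 to 60.1 CPM in DCC IFN-gamma and 16.4 to 19.4 CPM in DCC control, with Cxcr2 called higher and Elane, Mpo, Camp and Ltf at 0 in DCC IFN-gamma, and the 6 osteoclast markers to 1.10 to 1.46 CPM in DCC IFN-gamma and 0.515 to 4.20 CPM in DCC control, with Acp5 and Dcstamp at 0 in DCC IFN-gamma. The part of these markers in the members' changes was not tested, and in bulk libraries fewer cells of a type and less RNA per cell cannot be told apart.

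DCC control cells carried more of the set than either tumour cell source. Against early lesion cells 19 members were called higher and 5 lower, 52.2% against 37.7% of all genes. By direction these were 41.3% against 19.1% for higher and 10.9% against 18.7% for lower calls. Against TUBO 20 were higher and 5 lower, 54.3% against 42.0% of all genes, with 43.5% against 22.1% for higher and 10.9% against 19.9% for lower calls. The median log2 fold change was 1.46 over members and 0.23 over all genes in the first comparison. In the comparison with TUBO it was 2.99 over members, or 2.60 with members at 0 in a group set to their bound, and 0.37 over all genes. Both comparisons share the DCC control libraries and are given side by side. Markers of other cell types differed as well, in both directions. Osteoblast markers summed to 2370 to 2710 CPM in DCC control, 130 to 135 CPM in TUBO and 32.8 to 33.4 CPM in early lesion cells, with 5 of 7 called higher in both comparisons, and all 8 tested fibroblast markers were called higher in both. Pan-leukocyte markers summed to 30.1 to 31.3 CPM in DCC control, 0 to 0.0345 CPM in TUBO and 0.509 to 2.90 CPM in early lesion cells, with 4 of 5 called higher against early lesion cells and 5 against TUBO. Of 9 macrophage markers 6 were higher against early lesion cells and 7 against TUBO, with Cd14 lower in both. Their sums were 101 to 102 CPM in DCC control, 77.3 to 110 CPM in TUBO and 99.7 to 106 CPM in early lesion cells. Neutrophil markers summed to 16.4 to 19.4, 22.3 to 26.1 and 49.4 to 55.3 CPM in the same order, with Ltf lower in both comparisons. Osteoclast markers summed to 0.515 to 4.20, 0 to 0.138 and 8.55 to 13.4 CPM in that order, with Acp5 lower against early lesion cells. The part of these markers in the members' differences was not tested. Between TUBO and early lesion cells 5 members were higher and 9 lower, 30.4% against 24.1% of all genes, with 10.9% against 11.4% for higher and 19.6% against 12.7% for lower calls. The 9 lower calls became 5 without early lesion replicate 2, and the 5 higher calls became 8 without DCC IFN-gamma replicate 1. The median there was −1.48 over members, or −1.17 with bounds, and −0.27 over all genes. Low members enter every member median of this paragraph. Of the 20 given together below, not all tested, 1 and 5 had no read in DCC control. In TUBO 17 and 15 of them had none, and in early lesion cells 14 and 0.

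Of the inhibitors, Timp1, Timp2 and Timp3 were called higher in DCC control than in both tumour cell sources. Timp1, a soluble inhibitor that also binds pro-MMP-9, had 299 and 819 CPM in DCC IFN-gamma, 473 and 601 CPM in DCC control, 1.21 and 0.0381 CPM in TUBO, and 0.604 and 0.624 CPM in early lesion cells. All 4 DCC libraries stood above all others, and the wide DCC IFN-gamma pair spanned both controls. Its log2 fold change was 9.76 ± 1.01 (SE) for DCC control against early lesion cells with an edgeR adjusted p of 0.000419, and 9.69 ± 1.0 against TUBO with an adjusted p of 0.000395. For DCC IFN-gamma against DCC control it was 0.06 ± 0.64, adjusted p 0.959.

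Timp2, which both inhibits MMPs and helps MMP-14 to activate pro-MMP-2, had 1188 and 1181 CPM in DCC IFN-gamma, 702 and 808 CPM in DCC control, 80.4 and 70.4 CPM in TUBO, and 20.5 and 14.1 CPM in early lesion cells. The 4 groups did not overlap. It rose with interferon-gamma by 0.65 ± 0.19 on the log2 scale (edgeR adjusted p 0.039). Leaving out DCC control replicate 1 (adjusted p 0.231), DCC control replicate 2 (0.076), TUBO replicate 1 (0.0588) or TUBO replicate 2 (0.0583) ended that call, as did upper quartile scaling (0.0905). Against early lesion cells the log2 fold change of DCC control was 5.44 ± 0.24 with adjusted p 7.55e-08, against TUBO it was 3.32 ± 0.21 with adjusted p 8.96e-07, and TUBO exceeded early lesion cells by 2.12 ± 0.21 with adjusted p 6.42e-05.

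Timp3, the inhibitor held in the matrix, had 1140 and 1160 CPM in DCC IFN-gamma, 1678 and 1690 CPM in DCC control, 58.9 and 57 CPM in TUBO, and 279 and 230 CPM in early lesion cells. Each group kept to its own range, with TUBO lowest. Against early lesion cells DCC control gave a log2 fold change of 2.73 ± 0.17, and against TUBO 4.86 ± 0.19, with edgeR adjusted p-values of 1.01e-06 and 3.66e-08. TUBO was lower than early lesion cells by a log2 fold change of −2.14 ± 0.17, adjusted p 2.03e-05. DCC IFN-gamma was lower than DCC control by −0.55 ± 0.16, adjusted p 0.0383, a call lost when any 1 library other than DCC IFN-gamma replicate 1 was left out (adjusted p 0.0528 to 0.164). Timp3 lies within Syn3 on the other strand and shares 21.3% of its exon bases with it. Syn3 had at most 5.44 CPM in any library, and Timp4, the fourth inhibitor, at most 1.46 CPM.

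Among the collagenases, which cut the triple helix of fibrillar collagen, Mmp13 carried nearly all reads in the DCC libraries. It had 217 and 687 CPM in DCC IFN-gamma, 919 and 1224 CPM in DCC control, 1.14 and 0.534 CPM in TUBO, and 0.0318 and 0.223 CPM in early lesion cells, the last being 1 and 5 reads. DCC control was above DCC IFN-gamma, and both were far above the tumour cell sources, without overlap. DCC control exceeded early lesion cells by a log2 fold change of 13.16 ± 1.03 (edgeR adjusted p 0.000114) and TUBO by 10.30 ± 0.86 (0.000142). Against DCC control the DCC IFN-gamma difference was −1.25 ± 0.56 and was not called (adjusted p 0.175), but it was called without DCC IFN-gamma replicate 2 (0.00302). Mmp8, the neutrophil collagenase, had at most 10 reads in a library, and Mmp1a and Mmp1b at most 1.56 CPM. Because Mmp1a and Mmp1b are close copies, their reads may be split between them.

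Mmp13 is the first of 10 MMP genes that lie side by side on chromosome 9 (chr9:7272514-7699585, GRCm38, 427 kb), in the order Mmp13, Mmp12, Mmp1b, Mmp3, Mmp1a, Mmp10, Mmp8, Mmp27, Mmp20 and Mmp7. Of these Mmp13 and Mmp3 were called higher in DCC control than in both tumour cell sources, and Mmp3 was the only other cluster member that reached 10 CPM. Because the levels of these neighbours differed so much, the upstream sequence of Mmp13 is shown, followed by short stretches from the others that held a match. The 250 bases before the Mmp13 start, from RefSeq (GRCm38.p6, chr9:7272264-7272513, plus strand), are given with an AP-1 motif (TGANTCA) and a Runx motif (ACCACA) in capitals.

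Mmp13 upstream: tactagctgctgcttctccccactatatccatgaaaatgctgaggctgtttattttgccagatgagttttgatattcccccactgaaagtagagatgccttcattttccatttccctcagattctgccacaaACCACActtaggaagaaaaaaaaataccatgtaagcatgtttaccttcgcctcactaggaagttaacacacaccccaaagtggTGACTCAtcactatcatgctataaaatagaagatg

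Among windows from 250 bases before to 50 after a start, 36 of the 51 members had 39 windows in the RefSeq table. Both strands were searched. The AP-1 motif stood in 8 of the 39 (20.5%) and in 7.81% of all 32851 windows, and those 8 all belonged to the chromosome 9 cluster. That cluster held 12 of the 39 windows, and each of its genes had a window. The members without a window all lie outside it, among them Mmp2, Mmp9, Mmp16, Mmp19 and Adamts5, and were not searched. The 8 matches are shown with 12 bases on either side, the motif in capitals, on the strand of the gene.
Mmp13 (chr9:7272467-7272497, plus strand): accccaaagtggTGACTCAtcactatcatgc
Mmp12 (chr9:7347318-7347348, plus strand): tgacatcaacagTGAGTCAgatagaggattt
Mmp1b (chr9:7388101-7388131, minus strand): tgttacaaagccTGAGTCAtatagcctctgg
Mmp3 (chr9:7445764-7445794, plus strand): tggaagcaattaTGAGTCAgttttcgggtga
Mmp1a (chr9:7464056-7464086, plus strand): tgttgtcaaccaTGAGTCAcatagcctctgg
Mmp10 (chr9:7502267-7502297, plus strand): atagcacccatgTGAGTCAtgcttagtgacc
Mmp20 (chr9:7628124-7628154, plus strand): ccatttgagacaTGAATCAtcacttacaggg
Mmp7 (chr9:7692015-7692045, plus strand): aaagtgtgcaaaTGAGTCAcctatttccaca
The Mmp12 match lies before the second of its annotated starts, and the Mmp7 match before the first of its starts. No match stood in the other window of either gene or in those of Mmp8 and Mmp27. The core began 35 bases before the start in Mmp13, 44 in Mmp12, 46 in Mmp3, 63 in Mmp10 and Mmp7, 73 in Mmp1a, 93 in Mmp1b and 95 in Mmp20. The Runx motif stood in 6 of 39 windows (15.4%, against 16.8% of all windows), an interferon response motif of 2 GAAA runs with 2 bases of any kind between them in 1 (Mmp13, 3.44% of all), and a gamma-activated sequence motif (TTCNNNGAA) in 2, both of Mmp23 (5.13%, against 8.30% of all). These matches describe letters in a window only, and Mmp7, Mmp10 and Mmp20 carried the motif at levels of at most 3.30 CPM.

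**Figure D3:**
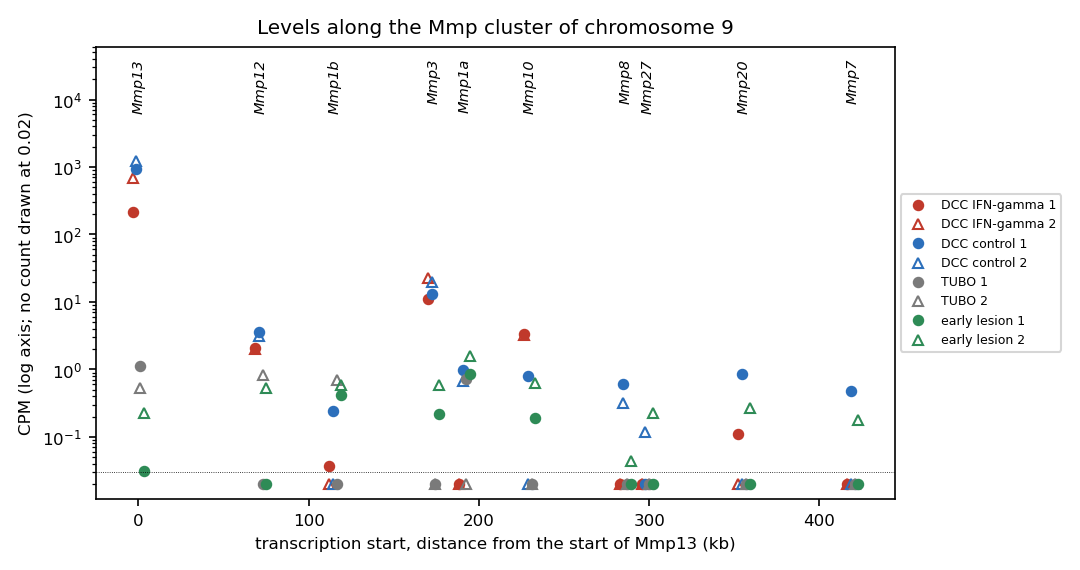
Level in CPM on a log axis of the 10 cluster genes in each library, against the distance of their start from that of Mmp13 in kb; points below the dotted line had no count. Mmp13 in DCC libraries stood at 217 to 1224 CPM and Mmp3 at 10.9 to 22.6 CPM, while no other cluster gene passed 3.53 CPM.

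Both gelatinases, which digest denatured collagen and basement membrane collagen IV, were called higher in DCC control than in both tumour cell sources. Mmp2 had 38.7 and 71.8 CPM in DCC IFN-gamma, 165 and 196 CPM in DCC control, 30.5 and 31.5 CPM in TUBO, and 11.1 and 11.9 CPM in early lesion cells. The groups did not overlap. Interferon-gamma-treated cells were lower by −1.71 ± 0.26 on the log2 scale (edgeR adjusted p 0.00149), and the call held under every alternative run. DCC control exceeded early lesion cells by 3.98 ± 0.28 (adjusted p 4.01e-06) and TUBO by 2.54 ± 0.27 (4.77e-05), and TUBO exceeded early lesion cells by 1.43 ± 0.26 (0.00366). Mmp9, the other gelatinase, had 2.02 and 5.71 CPM in DCC IFN-gamma and 9.80 and 9.78 CPM in DCC control, and at most 8 reads in any other library. It was called against early lesion cells with a log2 fold change of 5.86 ± 1.27 (adjusted p 0.005). Against TUBO, which held 2 reads in all, DCC control was 270 times higher with a counting interval of 74.3 to 2240 (adjusted p 0.002).

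Of the stromelysins and the related Mmp11, which cut a broad range of matrix proteins, Mmp3 and Mmp11 were called. Mmp3 had 10.9 and 22.6 CPM in DCC IFN-gamma and 13.0 and 19.5 CPM in DCC control, against 0 in both TUBO libraries and 0.223 and 0.580 CPM in early lesion cells. The DCC pairs overlapped and stood above all other libraries. DCC control was at least 149-fold higher than TUBO (edgeR adjusted p 1.85e-05) and exceeded early lesion cells by a log2 fold change of 5.38 ± 0.62 (0.000108). The call of TUBO below early lesion cells, by at least 3.68-fold with adjusted p 0.0116, was lost without early lesion replicate 2 (0.0559) or TUBO replicate 2 (0.0589). The log2 fold change of Mmp3 in DCC IFN-gamma against DCC control was 0.04 ± 0.48 and was not called (adjusted p 0.964). Mmp11, known as stromelysin-3, had 14.1 and 17.9 CPM in DCC IFN-gamma, 48.1 and 47.3 CPM in DCC control, 5.90 and 5.99 CPM in TUBO, and 1.08 and 2.05 CPM in early lesion cells. Its groups did not overlap, with DCC control highest and early lesion cells lowest. It was lower in DCC IFN-gamma than in DCC control by −1.58 ± 0.28 (adjusted p 0.00274), and DCC control exceeded early lesion cells by 4.95 ± 0.33 (1.32e-06) and TUBO by 3.01 ± 0.29 (1.91e-05), while TUBO exceeded early lesion cells by 1.95 ± 0.31 (0.00139).

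The membrane-type MMPs, tethered to the cell surface, split in opposite ways. Mmp15 had 0.440 and 0 CPM in DCC IFN-gamma, 1.22 and 0.515 CPM in DCC control, 247 and 250 CPM in TUBO, and 188 and 186 CPM in early lesion cells. Both tumour cell sources stood far above all DCC libraries. DCC control was lower than early lesion cells by a log2 fold change of −7.84 ± 0.57 (edgeR adjusted p 4.83e-05) and lower than TUBO by −8.25 ± 0.57 (3.64e-05). Mmp16 showed another split, with 15.4 and 13.5 CPM in DCC IFN-gamma, 20.5 and 22.1 CPM in DCC control, 0 in both TUBO libraries, and 13.1 and 11.4 CPM in early lesion cells. TUBO alone lacked it: DCC control was at least 195-fold higher than TUBO (adjusted p 4.44e-07) and TUBO at least 112-fold lower than early lesion cells (4.14e-06). DCC control was called above early lesion cells by 0.80 ± 0.27 (adjusted p 0.0422), which was lost without DCC control replicate 1 (0.112) or replicate 2 (0.198), early lesion replicate 1 (0.143) or replicate 2 (0.207), or DCC IFN-gamma replicate 2 (0.0548), and with a replicate block (0.0582).

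Mmp14, the activator of pro-MMP-2, had 75.2 and 142 CPM in DCC IFN-gamma, 155 and 148 CPM in DCC control, 37.1 and 45.7 CPM in TUBO, and 130 and 122 CPM in early lesion cells. TUBO was low, and the other groups lay closer together. DCC control against TUBO gave a log2 fold change of 1.87 ± 0.27 with adjusted p 0.000535, and TUBO against early lesion cells gave −1.60 ± 0.27 with adjusted p 0.00271. DCC control against early lesion cells was not called at 0.26 ± 0.26 (adjusted p 0.528). DCC IFN-gamma against DCC control was −0.48 ± 0.26 and not called (0.228), but was called without DCC IFN-gamma replicate 2 (0.00095). Mmp17, a glycolipid-anchored member, was called higher with interferon-gamma at 6.56 and 10.2 CPM in DCC IFN-gamma against 0.731 and 0.554 CPM in DCC control, with a log2 fold change of 3.70 ± 1.11 (adjusted p 0.0386). That call was lost without DCC control replicate 1 (0.127) or replicate 2 (0.14), or DCC IFN-gamma replicate 1 (0.0891) or replicate 2 (0.21). In the other libraries Mmp17 had at most 0.803 CPM.

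Among the other MMPs, Mmp19 and Mmp28 were called higher in DCC control than in both tumour cell sources. Mmp19, a secreted basement membrane protease, had 23.2 and 52.6 CPM in DCC IFN-gamma, 57 and 68.6 CPM in DCC control, 0 and 0.229 CPM in TUBO, and 0.636 and 1.16 CPM in early lesion cells. The DCC libraries did not overlap with the others. DCC control exceeded early lesion cells by a log2 fold change of 6.16 ± 0.66 (edgeR adjusted p 0.000333) and TUBO by 9.11 ± 0.83 (0.000138), and DCC IFN-gamma against DCC control was not called at −0.73 ± 0.50 (0.323). Mmp19 shares 28.3% of its exon bases with genes on the opposite strand, and the strand setting of the counting was not given in the sources used here.

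Mmp28, or epilysin, had 6.63 and 11.1 CPM in DCC IFN-gamma, 19.7 and 20.8 CPM in DCC control, 3.28 and 8.58 CPM in TUBO, and 0.223 and 0.758 CPM in early lesion cells. TUBO and DCC IFN-gamma overlapped, DCC control was above both, and early lesion cells were lowest. DCC control differed by a log2 fold change of 5.42 ± 0.69 against early lesion cells (edgeR adjusted p 0.000186) and 1.77 ± 0.55 against TUBO (0.0277). The TUBO call was lost without DCC control replicate 1 (0.0858) or replicate 2 (0.0883) or TUBO replicate 1 (0.0999). TUBO exceeded early lesion cells by 3.65 ± 0.66 (0.00336), and DCC IFN-gamma against DCC control was not called at −1.19 ± 0.54 (0.158), but it was in a fit of the 4 DCC libraries alone (0.0266) and with no filter on low counts (0.0202).

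Of the 7 proteoglycan-cleaving ADAMTS proteases, 3 were called higher and 2 lower in DCC control than in early lesion cells. Against TUBO 3 were higher and 1 lower. Over all genes 19.1% were called higher and 18.7% lower against early lesion cells, and 22.1% and 19.9% against TUBO. Adamts1, which cuts versican and aggrecan, had 96.0 and 200 CPM in DCC IFN-gamma, 79.0 and 90.0 CPM in DCC control, 26.3 and 30.0 CPM in TUBO, and 22.6 and 20.2 CPM in early lesion cells. All DCC libraries were above all others, and both treated libraries were above both controls. DCC control differed by 1.98 ± 0.31 against early lesion cells (edgeR adjusted p 0.0012) and 1.59 ± 0.31 against TUBO (0.00346). The interferon-gamma difference of 0.81 ± 0.30 was not called (0.0956), but it was without DCC IFN-gamma replicate 1 (6.96e-05).

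Adamts5, the main aggrecanase of mouse cartilage, lies 53.1 kb from Adamts1 on chromosome 16. It had 16.3 and 121 CPM in DCC IFN-gamma, 61.7 and 65.5 CPM in DCC control, 1.38 and 1.14 CPM in TUBO, and 3.21 and 6.29 CPM in early lesion cells. The treated pair spanned the controls, and all DCC libraries were above the rest. For DCC IFN-gamma against DCC control the log2 fold change was 0.11 ± 0.81 (edgeR adjusted p 0.936), 0.93 without DCC IFN-gamma replicate 1 (0.0495) and −1.92 without DCC IFN-gamma replicate 2 (0.000656). DCC control was called above early lesion cells at 3.76 ± 0.93 (0.0199) and above TUBO at 5.65 ± 1.05 (0.00565). The first call was lost when any 1 of the 6 libraries of DCC control, early lesion or TUBO was left out (0.0642 to 0.18), and the second without DCC control replicate 2 (0.08), TUBO replicate 1 (0.0891) or TUBO replicate 2 (0.0839).

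Adamts9, another versican-cleaving member, had 4.51 and 5.46 CPM in DCC IFN-gamma, 58.8 and 68.4 CPM in DCC control, 5.0 and 0.458 CPM in TUBO, and 3.02 and 3.35 CPM in early lesion cells. DCC control stood above all other libraries, and the wide TUBO pair overlapped both DCC IFN-gamma and early lesion cells. DCC IFN-gamma was below DCC control by a log2 fold change of −3.67 ± 0.84 (edgeR adjusted p 0.0265). It was lost without any 1 of the 4 DCC libraries or early lesion replicate 1 (0.0687 to 0.255), and with a replicate block (0.0806). DCC control was above early lesion cells by 4.32 ± 0.87 (0.00858), a call lost without DCC control replicate 2 (0.096), either DCC IFN-gamma library (0.0648 and 0.073), or early lesion replicate 1 (0.0961) or 2 (0.0546). Against TUBO the value was 4.53 ± 0.88 (0.00688), lost without DCC control replicate 2 (0.0775) or DCC IFN-gamma replicate 1 (0.0546) or 2 (0.0598). Adamts9 shares part of its exon bases with genes on the opposite strand.

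Adamts15 and its neighbour Adamts8, 20.1 kb away on chromosome 9, were highest in early lesion cells. Adamts15, also an aggrecanase, had no read in either DCC IFN-gamma library, 0.304 and 0.911 CPM in DCC control, 14.9 and 13.2 CPM in TUBO, and 34.1 and 34.8 CPM in early lesion cells. The groups did not overlap. It was at least 5.17-fold lower in DCC IFN-gamma than in DCC control (edgeR adjusted p 0.00235), and DCC control was lower than early lesion cells by a log2 fold change of −5.73 ± 0.45 (9.13e-06) and lower than TUBO by −4.44 ± 0.44 (3.75e-05). TUBO was below early lesion cells by −1.30 ± 0.35 (0.025), a call lost without early lesion replicate 1 (0.103) or 2 (0.131) or TUBO replicate 1 (0.057) or 2 (0.137). Adamts8 had no read in DCC IFN-gamma, 0.548 and 0.673 CPM in DCC control, 0.690 and 0 CPM in TUBO, and 11.7 and 9.23 CPM in early lesion cells. Early lesion cells stood above all other libraries. Its log2 fold change was −4.08 ± 1.26 for DCC control against early lesion cells (0.0331), lost without either DCC control library (0.181 and 0.18) or early lesion replicate 1 (0.115) or 2 (0.0674), and −4.89 ± 1.31 for TUBO against early lesion cells (0.028), lost without either DCC control library (0.0614 and 0.0636) or early lesion replicate 1 (0.0851) or 2 (0.0714). Adamts4, the other well-known aggrecanase, had 1.69 and 6.55 CPM in DCC IFN-gamma, 4.38 and 3.84 CPM in DCC control, 10.2 and 11.2 CPM in TUBO, and 3.85 and 4.82 CPM in early lesion cells. TUBO was highest and the other groups overlapped. No comparison of Adamts4 was called (edgeR adjusted p 0.0785 to 1.0), but DCC control against TUBO was without DCC IFN-gamma replicate 1 (0.0127) or replicate 2 (0.0201), and TUBO against early lesion cells was without DCC IFN-gamma replicate 1 (0.0245).

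The procollagen N-propeptidases, which trim the amino ends of fibrillar procollagens, did not move together. Adamts2 had 11.8 and 23.4 CPM in DCC IFN-gamma, 21.1 and 26.5 CPM in DCC control, 0.0690 and 0.381 CPM in TUBO, and 7.88 and 8.47 CPM in early lesion cells. The DCC groups overlapped and TUBO was lowest. TUBO was below early lesion cells by a log2 fold change of −5.19 ± 0.60 (edgeR adjusted p 0.000244) and below DCC control, whose log2 fold change against TUBO was 6.73 ± 0.61 (1.56e-05). DCC control was above early lesion cells by 1.54 ± 0.44 (0.019), lost without DCC control replicate 2 (0.0985), early lesion replicate 1 (0.0988) or early lesion replicate 2 (0.0724).

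Adamts3 ran the other way, with 0.330 and 0.709 CPM in DCC IFN-gamma, 1.70 and 1.11 CPM in DCC control, 33.7 and 35.9 CPM in TUBO, and 53.9 and 51.6 CPM in early lesion cells. The 4 groups did not overlap. DCC control was lower than early lesion cells by a log2 fold change of −5.26 ± 0.32 (edgeR adjusted p 6.76e-07) and lower than TUBO by −4.66 ± 0.31 (1.29e-06). DCC IFN-gamma was lower than DCC control by −1.42 ± 0.38 (0.024), lost without DCC control replicate 1 (0.139) or DCC IFN-gamma replicate 1 (0.117). Adamts14 had 4.47 and 8.01 CPM in DCC IFN-gamma, 2.62 and 6.46 CPM in DCC control, 17.1 and 21.7 CPM in TUBO, and 8.45 and 9.46 CPM in early lesion cells. TUBO was highest without overlap, and DCC control was lower than TUBO by −2.08 ± 0.45 (0.00397).

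The ADAMTS proteases called lower in DCC IFN-gamma than in DCC control were Adamts3, Adamts7, Adamts9, Adamts12 and Adamts15. Adamts12 had 7.44 and 4.84 CPM in DCC IFN-gamma, 20.8 and 28.4 CPM in DCC control, 4.52 and 4.96 CPM in TUBO, and 10.3 and 14.1 CPM in early lesion cells. DCC control was highest, and DCC IFN-gamma and TUBO overlapped. The log2 fold change of DCC IFN-gamma against DCC control was −2.00 ± 0.33 (edgeR adjusted p 0.00189) and held under every alternative run. DCC control was above TUBO by 2.38 ± 0.33 (0.000242) and above early lesion cells by 1.01 ± 0.32 (0.0287), the second call being lost without DCC control replicate 2 (0.231), early lesion replicate 1 (0.224) or early lesion replicate 2 (0.0519). TUBO was below early lesion cells by −1.37 ± 0.33 (0.0121), lost without early lesion replicate 2 (0.0989) or TUBO replicate 2 (0.0531).

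Adamts7, a protease of COMP and thrombospondins, had 2.35 and 3.92 CPM in DCC IFN-gamma, 7.37 and 7.29 CPM in DCC control, 31.8 and 36.3 CPM in TUBO, and 29.1 and 31.8 CPM in early lesion cells. It was higher in both tumour cell sources than in DCC, and lowest with interferon-gamma. DCC control was lower than early lesion cells by a log2 fold change of −2.06 ± 0.26 (edgeR adjusted p 0.000136) and lower than TUBO by −2.22 ± 0.26 (7.63e-05), and DCC IFN-gamma was lower than DCC control by −1.23 ± 0.27 (0.00948). That last call was lost when early lesion replicate 2 and DCC control replicate 1 were both left out (0.0862).

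Adamts10, which binds fibrillin, had 7.55 and 17.6 CPM in DCC IFN-gamma, 20.2 and 15.7 CPM in DCC control, 7.66 and 4.46 CPM in TUBO, and 10.1 and 11.9 CPM in early lesion cells. DCC control and TUBO did not overlap, and the call of DCC control above TUBO, a log2 fold change of 1.56 ± 0.42 (edgeR adjusted p 0.0128), was lost without DCC control replicate 1 (0.0703) or TUBO replicate 2 (0.0993). Adamts6, its closest relative, had 22.2 and 10.9 CPM in DCC IFN-gamma, 14.2 and 7.64 CPM in DCC control, 4.62 and 5.19 CPM in TUBO, and 3.05 and 4.37 CPM in early lesion cells. All DCC libraries were above the others. DCC control was above early lesion cells by 1.56 ± 0.45 (0.0191), lost without DCC control replicate 1 (0.16) or early lesion replicate 1 (0.127).

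Of the ADAMTS-like proteins, Adamtsl3 was called in all 4 comparisons. It had 13.3 and 21.6 CPM in DCC IFN-gamma, 139 and 122 CPM in DCC control, 1.17 and 2.14 CPM in TUBO, and 25.7 and 23.7 CPM in early lesion cells. The groups did not overlap, with DCC control highest and TUBO lowest. The log2 fold change of DCC IFN-gamma against DCC control was −2.90 ± 0.29 (edgeR adjusted p 0.000115), and it held under every alternative run. DCC control exceeded early lesion cells by 2.40 ± 0.28 (9.15e-05) and TUBO by 6.30 ± 0.35 (5.12e-07), and TUBO was below early lesion cells by −3.91 ± 0.32 (3.28e-05).

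Adamtsl4, a fibrillin-binding protein, had 20.1 and 46.9 CPM in DCC IFN-gamma, 15.0 and 14.3 CPM in DCC control, 11 and 7.29 CPM in TUBO, and 9.28 and 8.70 CPM in early lesion cells. DCC libraries were above the others, and both treated libraries above both controls. The log2 fold change with interferon-gamma was 1.19 ± 0.37 (edgeR adjusted p 0.0493). It was lost without either DCC control library (0.187 and 0.197), DCC IFN-gamma replicate 2 (0.365), early lesion replicate 1 (0.0609) or 2 (0.064), or TUBO replicate 2 (0.0571), and under RLE (0.0566) and upper quartile (0.0877) scaling. Adamtsl5 had 10.4 and 17.0 CPM in DCC IFN-gamma, 5.84 and 9.82 CPM in DCC control, 3.0 and 2.14 CPM in TUBO, and 0.0954 and 0.758 CPM in early lesion cells. No pair of groups overlapped. DCC control exceeded early lesion cells by 4.27 ± 0.78 (0.00159), and TUBO exceeded them by 2.66 ± 0.75 (0.0289), lost without early lesion replicate 1 (0.0933) or TUBO replicate 1 (0.12) or 2 (0.0791). Adamtsl1 was low, at most 2.37 CPM, with no read in TUBO, and was at least 18.0-fold higher in DCC control than in TUBO (0.0131), lost without DCC control replicate 1 (0.0508).

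The remaining 20 members had at most 3.57 CPM in any library, summing to 7.62 and 6.72 CPM in DCC IFN-gamma, 21.2 and 11.5 CPM in DCC control, 1.90 and 3.62 CPM in TUBO, and 3.69 and 15.7 CPM in early lesion cells. None of those tested was called in any of the 4 comparisons in the fit of all 8 libraries. They had a read for 7 and 5 genes in DCC IFN-gamma, 19 and 15 in DCC control, 3 and 5 in TUBO, and 6 and 20 in early lesion cells. The highest counts of detected genes were in early lesion replicate 2 and DCC control replicate 1, the libraries with the highest shares of olfactory receptor genes with a read, and the part of that in these low levels was not tested. They include Adamts13, the von Willebrand factor protease, and Mmp12, the macrophage elastase, which had 2.05 and 2.04 CPM in DCC IFN-gamma and 3.53 and 3.13 CPM in DCC control while macrophage markers were called higher.

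**Figure D4:**
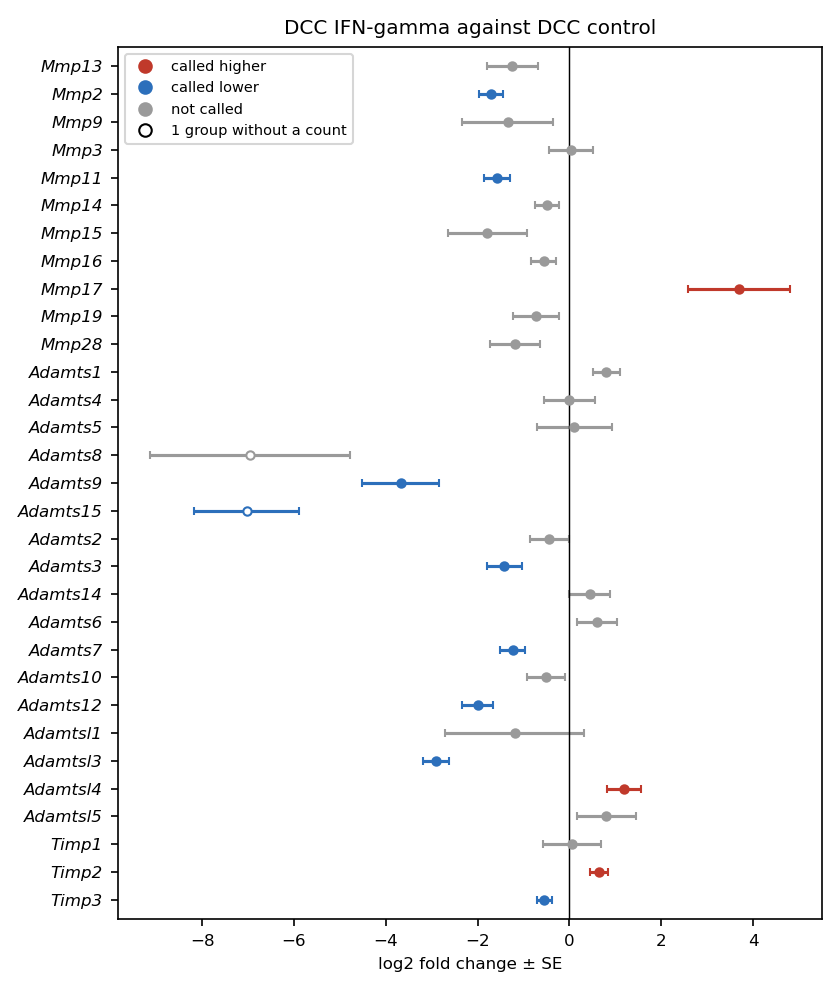
Log2 fold change with SE of the named members in DCC IFN-gamma against DCC control; red and blue points were called, grey were not, and open points had no read in a group. Adamtsl3 lay at −2.90, Mmp2 at −1.71 and Timp2 at 0.65.

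**Figure D5:**
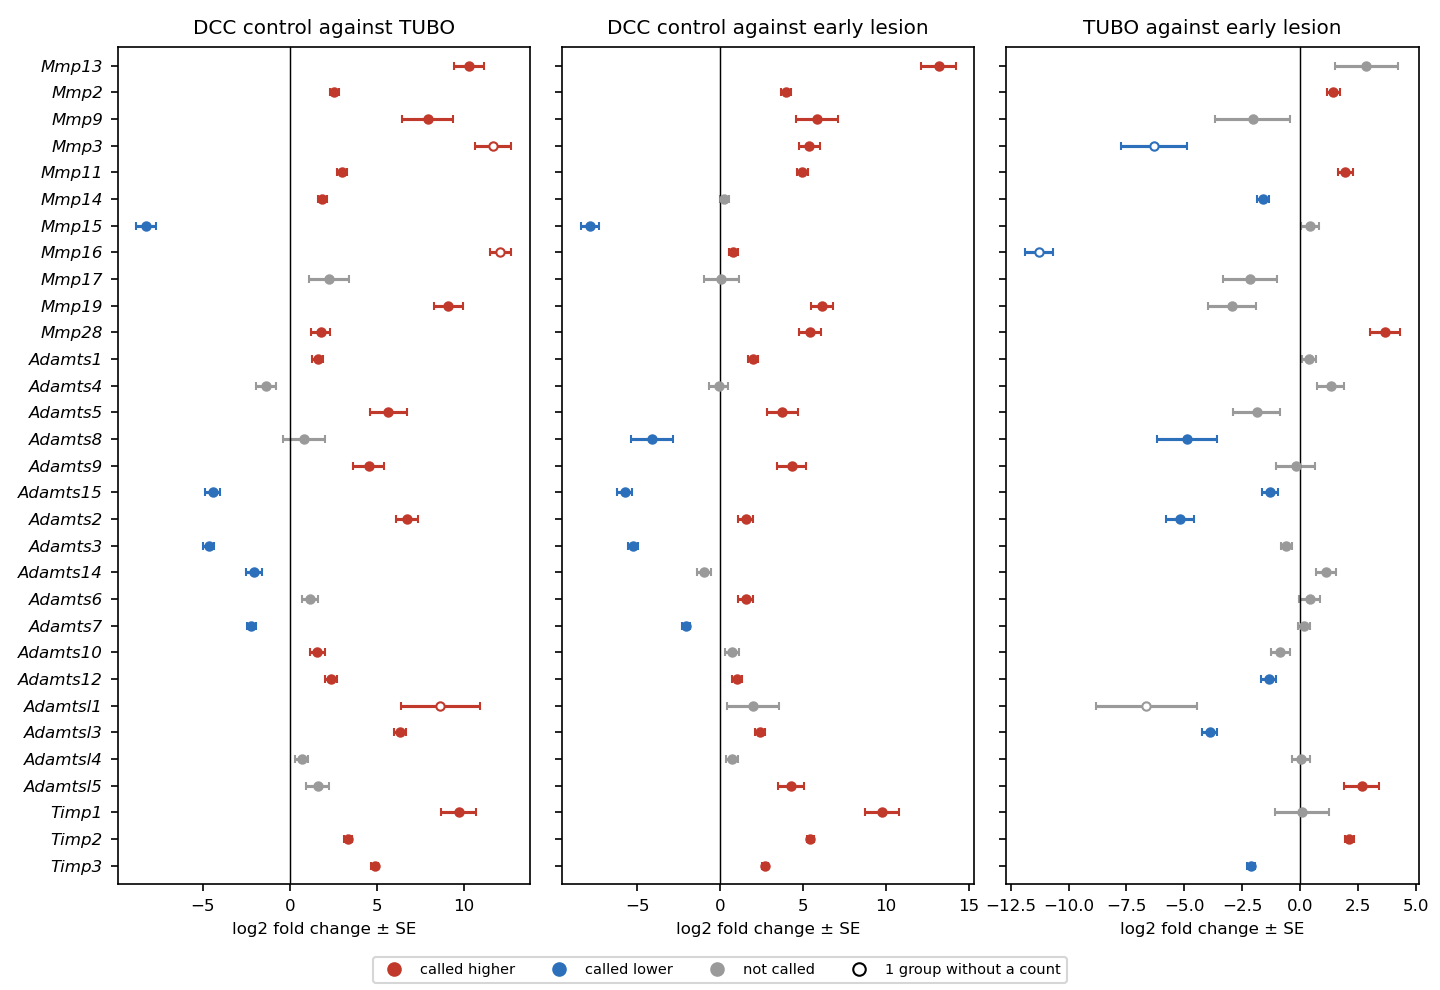
Log2 fold change with SE of the named members in DCC control against TUBO, in DCC control against early lesion cells, and in TUBO against early lesion cells. Mmp13 lay at 10.30 and 13.16 and Mmp15 at −8.25 and −7.84 in the first and middle panels.

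Genes that act around these proteases, in lists that hold no member, were compared in the same fit. Of 20 tested activators, cofactors and clearance receptors, 6 were higher and 2 lower in DCC IFN-gamma, 40.0% called against 21.4% of all genes. The median log2 fold change over all 20 was −0.59, below 0 although more of them were called higher than lower. It includes uncalled genes of low level, such as Spock2 with a mean of 0.147 CPM in DCC IFN-gamma and 1.92 CPM in DCC control. Plaur, the urokinase receptor, had 159 and 165 CPM in DCC IFN-gamma and 17.5 and 11.4 CPM in DCC control, a log2 fold change of 3.50 ± 0.24 (edgeR adjusted p 1.05e-05). Plau, the urokinase gene, differed by 2.41 ± 0.34 (0.000752), whereas the pro-protein convertase Pcsk6 was lower at −1.97 ± 0.42 (0.0166). Lrp1, the uptake receptor for MMPs and their inhibitors, was higher in DCC control than in early lesion cells at 5.59 ± 0.23 (5.61e-08) and than in TUBO at 8.33 ± 0.27 (1.45e-08).

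Of 14 substrates tested, 6 were called lower in DCC IFN-gamma than in DCC control and 8 were not called. That is 42.9% called against 21.4% of all genes. The median log2 fold change over all 14 was −3.36. It includes uncalled genes of low level, such as Acan with a mean of 0 CPM in DCC IFN-gamma and 1.27 CPM in DCC control. Among the uncalled, Vcan averaged 24.2 CPM in DCC IFN-gamma and 15.6 CPM in DCC control, and Fbn1 139.5 CPM in DCC IFN-gamma and 136.5 CPM in DCC control. Col1a1 and Col3a1 stand also among the fibroblast markers. Col3a1, a fibrillar collagen cut by Mmp13, had 92.0 and 216 CPM in DCC IFN-gamma and 2969 and 3629 CPM in DCC control, with a log2 fold change of −4.42 ± 0.64 (edgeR adjusted p 0.00472), and Comp, a substrate of Adamts7 and Adamts12, was lower at −3.59 ± 0.55 (0.00593). In DCC control against early lesion cells 8 substrates were higher and 2 lower, 71.4% called against 37.7% of all genes. Against TUBO 9 were higher and 2 lower, 78.6% called against 42.0%. Of 20 other matrix proteases 8 were higher (40.0%, against 12.6% of all genes) and 1 lower (5.0%, against 8.83%) in DCC IFN-gamma. They included the cysteine protease Ctss, with 178 and 113 CPM in DCC IFN-gamma and 6.21 and 5.11 CPM in DCC control at 4.69 ± 0.62 (0.0056), and Adam8 at 3.0 ± 0.29 (0.00013). Mme, the membrane protease neprilysin, was lower at −2.53 ± 0.37 (0.00257).

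Of 15 transcription factors known to act on MMP promoters, 11 were higher and 1 lower in DCC IFN-gamma. That is 73.3% higher against 12.6% of all genes, and 6.67% lower against 8.83%. Their median log2 fold change was 1.55. Irf1, a direct part of the interferon response, differed by 6.09 ± 0.25 (edgeR adjusted p 7.66e-07). The AP-1 subunit gene Fosl1 had 1373 and 1014 CPM in DCC IFN-gamma, 93.6 and 86.1 CPM in DCC control, 0.517 and 0.381 CPM in TUBO, and 1.02 and 2.05 CPM in early lesion cells. Jun differed by 4.13 ± 0.31 (5.62e-05). Runx2, an osteoblast factor that is also among the osteoblast markers, had 67.8 and 91.9 CPM in DCC IFN-gamma and 325 and 346 CPM in DCC control. Its levels were 36.7 and 34.3 CPM in TUBO, and 22.9 and 18.7 CPM in early lesion cells. By group mean DCC control was highest for Runx2, as for Mmp13, and also for Fosl2 and Ets2. Fosl2 averaged 444.6 CPM in DCC control and 389.8 CPM in DCC IFN-gamma. Ets2 averaged 131.4 CPM in DCC control and 98.6 CPM in DCC IFN-gamma. The part of these factors in the Mmp13 levels was not tested. Runx2 was lower in DCC IFN-gamma than in DCC control by −2.07 ± 0.18 (4.53e-05) and higher in DCC control than in early lesion cells by 4.01 ± 0.20 (1.76e-07). In DCC control against early lesion cells 7 of these factors were higher and 4 lower, 73.3% called against 37.7% of all genes. Against TUBO 5 were higher and 5 lower, 66.7% called against 42.0%.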

How the data were processed

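Raw counts by gene symbol were deposited by the authors in a single table. Per the submitters' processing notes, TopHat, HTSeq 0.6.1 and mm10 were used; annotation, strand setting and filters are not given in the sources used here. Per the labels' protocols the kit was Nugen Ovation Mouse RNAseq. CPM used TMM library sizes and RPKM the union exon length of GENCODE M21 (GRCm38), in which all 51 members matched; promoter sequences are RefSeq's for GRCm38.p6. After filterByExpr (minimum count 10), edgeR's quasi-likelihood test (edgeR 4.0.16, R 4.3.3, robust) was fitted to all 17069 tested genes in 4 group means over 8 libraries with 4 residual degrees of freedom, and p-values were Benjamini-Hochberg adjusted over all of them. SE is the absolute log2 fold change over the root of F. The scripts were tested on simulated data. Closing lines of the table (no gene assigned) held 35.2% to 63.7% of a library's reads and were left out. Floors are 3 counts per library and cover counting error only. Members with a mean of at least 10 CPM in a group were described in full, with called members over 1 CPM in brief. Members and lists were chosen with earlier results of these data known. Alternatives were RLE and upper quartile factors, 2 other filters, DESeq2 1.42.0, a fit of the 2 groups compared, a replicate block, and leaving out libraries. Some listed genes that are no members are counted in their lists but not reported by name here.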

Additional observations from a re-analysis of the deposited data

How the results depend on the processing

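Of the 75 calls among 31 named members in 4 comparisons, 51 held under every alternative run and 24 were lost under at least 1, while 29 uncalled values were called somewhere. With 1 library left out an arm holds 1 library, assumed to vary like the other groups. Members higher in DCC IFN-gamma than in DCC control numbered 3, but 0 under upper quartile factors, 1 in a fit of those 2 groups, 0 without both early lesion replicate 2 and DCC control replicate 1, and 0 to 4 with 1 library left out. Those lower numbered 9, but 15 with no filter, 5 without those 2 libraries, and 6 to 11 with 1 left out. In TUBO against early lesion cells 5 were higher (8 with no filter, 4 to 8 with 1 left out) and 9 lower (5 without the 2 libraries, 5 to 13 with 1 left out). With 1 left out, DCC control against early lesion cells gave 13 to 19 higher and 4 to 6 lower, and against TUBO 17 to 23 higher and 5 to 6 lower. Without the same 2 libraries these were 13 and 4, and 19 and 5. The only reversal was Adamts5 in DCC IFN-gamma against DCC control, −1.92 without DCC IFN-gamma replicate 2 and 0.93 without DCC IFN-gamma replicate 1. No named call changed sign under RLE or upper quartile factors, and upper quartile factors moved the median of all genes by −0.20 in DCC IFN-gamma against DCC control and by 0.11 in DCC control against TUBO. Calls over all genes changed between settings too, as did the number tested. With no filter, 2208 of 22178 genes and 15 of 51 members were lower in DCC IFN-gamma than in DCC control. The main fit called 1508 of 17069 genes and 9 of 46 members lower. Without both early lesion replicate 2 and DCC control replicate 1, fewer of all genes were called lower in that comparison as well. The cause of these changes was not tested.

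The labels do not say whether shared replicate numbers pair the samples. Deviations of same-numbered libraries correlated at 0.0911 for DCC IFN-gamma with DCC control and −0.432 for DCC control with early lesion. The values were −0.0488 for DCC control with TUBO and 0.0957 for TUBO with early lesion. Each group gives a single replicate difference, so these correlations cannot decide whether samples were paired. With a replicate block, members higher and lower numbered 2 and 8 for DCC IFN-gamma against DCC control, 18 and 6 for DCC control against early lesion, 20 and 5 against TUBO, and 5 and 10 for TUBO against early lesion. The crossed pairing, chosen after seeing the data, gave 18 and 4 for DCC control against early lesion. Depth limits low members, since 3 counts stand for 0.0953 to 0.183 CPM.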

Other observations

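Timp1, Timp3 and Timp4 lie within synapsin genes on the opposite strand, and a host gene moved with its guest in the case of Timp1. Syn1, which holds Timp1, had 9.38 and 12.9 CPM in DCC IFN-gamma, 8.16 and 6.50 CPM in DCC control, 0 in both TUBO libraries, and 0.604 and 1.03 CPM in early lesion cells. All DCC libraries were above all others, as for Timp1, and no exon bases are shared. Syn2, which holds Timp4, had at most 4.08 CPM and Syn3, which holds Timp3, at most 5.44 CPM in any library. Whether Syn1 reads come from Timp1 was not tested, as the strand setting of the counting is not known.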
